A study of Mus musculus with 8 samples.

Results

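The baseline transcriptome of wild-type Lewis lung carcinoma (LLC) cells was read from the 4 libraries labelled wild-type, out of 8 libraries in the series, and described over 21903 protein-coding genes of the 55487 genes in the tables. LLC is a mouse lung carcinoma line that is grown in culture or implanted into syngeneic mice. The cells carried no edit and received no treatment named in the labels, were cultured in DMEM with GlutaMAX, ESC FBS and penicillin-streptomycin, and make up biological replicates 1 to 4, all in batch 1. The other 4 libraries come from ΔAgo2 LLC cells and are not compared here. The labels do not say whether the replicates were separate thaws, passages or dishes, so the spread over them may be partly technical, and as they come from 1 line it says nothing of other lung tumours.

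Expression is given in TPM, a transcript abundance corrected for the length of the gene and for the depth of the library, so that genes within a library can be ranked against each other. TPM is a share of the RNA in a library and not an amount per cell, and in bulk samples fewer cells of a type and less RNA per cell cannot be told apart. Values over the libraries are given in the order of replicates 1, 2, 3 and 4, and as mean ± SD with n = 4 unless stated otherwise. A gene was taken as expressed at a mean of at least 1 TPM, and as at the floor when it had 3 counts or fewer in every library.

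Lung carcinomas are epithelial tumours, and their cells usually carry keratins, E-cadherin and EpCAM. In epithelial-to-mesenchymal transition, transcription factors of the Snai, Zeb and Twist families repress such genes while vimentin, fibronectin and other mesenchymal genes are switched on. Lung lineage is read from other genes. Nkx2-1 specifies lung epithelium, the surfactant proteins mark alveolar type 2 cells, secretoglobins mark club cells, and p63 and keratin 5 mark basal cells.

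The libraries held between 40740643 and 68530912 counts, of which 98.6% to 99.2% fell on protein-coding genes. A count of 0 allows a level of up to 3 counts, which is 0.0438 to 0.0736 CPM, the count scaled to the library total, in these libraries, and this limit covers counting error only. The library labelled replicate 4 stood apart from the other 3. Over the expressed genes its Spearman correlation with each of them was between 0.738 and 0.804, against 0.914 to 0.945 among replicates 1 to 3. These are correlations across genes within libraries and carry no test. Replicate 4 was the shallowest, held 6260 genes at 10 TPM or more against 8007 to 8481, gave 1.21% of its protein-coding TPM to the mitochondrial genes against 8.30% to 10.3%, and was the lowest of the 4 libraries for 53.4% of expressed genes. Its deviation from the mean of the others correlated with the GC content of the genes at a Spearman rho of 0.75 (11051 genes), while this rho was between -0.54 and -0.47 for the other 3 libraries. The mean that replicates 1 to 3 were set against includes replicate 4. The 4 values of rho therefore depend on each other, and the negative ones are not separate evidence on replicates 1 to 3. The part of GC content or depth in the levels below was not tested, and means of named genes that moved by over 1.5 times without replicate 4 are also given without it.

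Of the 21903 protein-coding genes, 11051 (50.5%) were expressed. A mean of at least 10 TPM was found for 8156 genes, of at least 100 TPM for 1615 and of at least 1000 TPM for 110. Without replicate 4 these counts were 11073, 8325, 1624 and 108. The threshold of 1 TPM was met in every library by 9816 genes, and 440 genes met it in 1 library only. At the other end, 5831 genes (26.6%) had 0 counts in all 4 libraries, 7942 (36.3%) were at the floor and 2910 (13.3%) lay between the floor and 1 TPM. The median expressed gene had a mean of 25.1 TPM, with quartiles of 9.43 and 60.7 TPM.

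Transcript mass was concentrated in few genes. The 100 most abundant genes of each library held 40.6%, 31.2%, 35.2% and 38.5% of its protein-coding TPM, a mean of 36.4% ± 4.10. It took 228, 479, 346 and 235 genes to reach 50% of the protein-coding TPM. Replicate 2 was the flattest library by both measures. Replicate 1 was the steepest by both, while beyond the first genes replicate 4 was, with 72.5% of its TPM in 1000 genes against 68.4% in replicate 1.

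**Figure D1:**
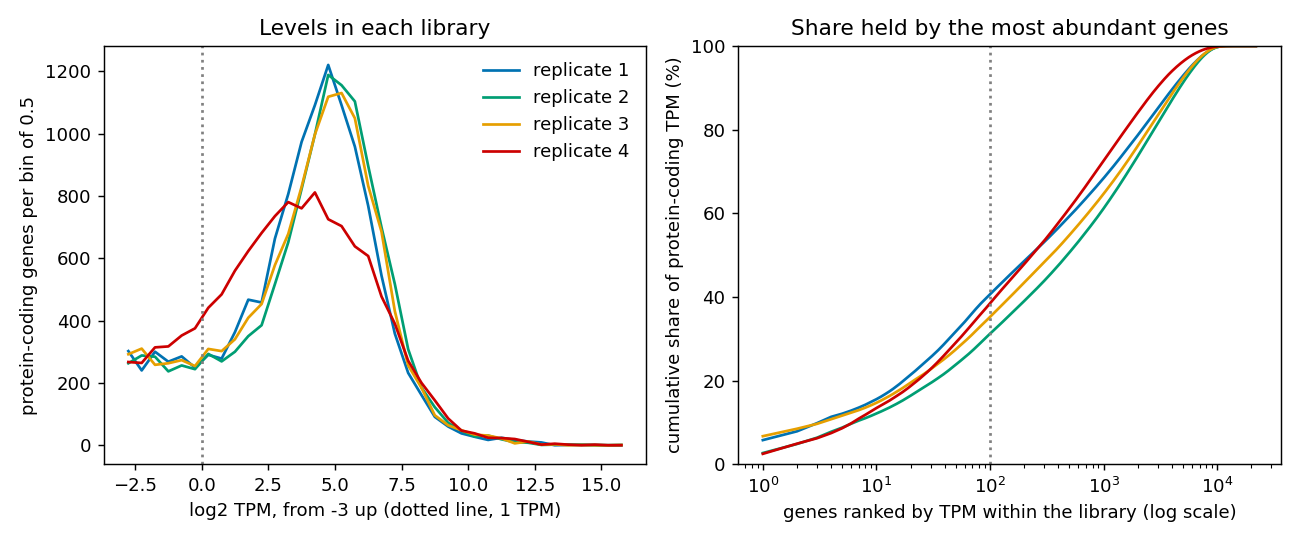
Left, the number of protein-coding genes in each bin of 0.5 log2 TPM for the 4 wild-type libraries, from -3 upwards. Right, the cumulative share of protein-coding TPM against the rank of the gene in its library, on a log axis. Replicate 4 has fewer genes between 10 and 100 TPM and more just above 1 TPM than the other libraries, and the first 100 genes hold between 31.2% and 40.6% of the TPM.

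The most abundant protein-coding transcript was mt-Co1, a mitochondrially encoded subunit of cytochrome c oxidase, at 55244, 25875, 64412 and 4005 TPM. It was the first gene in replicates 1 to 3 and was lowest by far in replicate 4. Likewise, mt-Cytb, the cytochrome b of complex III, was at 20139.5, 20877, 8432 and 2410.4 TPM. The 13 mitochondrial genes contained 6 of the 30 most abundant genes, and their share of the protein-coding TPM was 10.3%, 8.30%, 9.75% and 1.21%. The 103 ribosomal protein genes held more, with 20.8%, 14.1%, 16.6% and 22.9%, and were led by the stalk proteins Rplp1 at 14458, 9556, 11218 and 23909 TPM and Rplp0 at 7117, 5444, 5833 and 11817 TPM. The elongation factors of translation were in the same range, with Eef1a1 at 18662, 13718, 17122 and 8718 TPM and Eef2 at 5781, 4231, 5744 and 11176 TPM. Eef1a1 was lowest and Eef2 highest in replicate 4, so that their order changed with the library.

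Outside the translation and respiration machinery, the first place by the mean of the 4 libraries belonged to Lgals1, which encodes the secreted lectin galectin-1 and ranked 5 overall. Lgals1 was at 6004, 7179, 2963 and 23232 TPM, and most of this spread came from replicate 4, without which the mean was 5382 ± 2176 TPM (n = 3). Its place rested on replicate 4, since without that library Lgals1 ranked 11, behind the ferritin gene Ftl1 at rank 7. The ferritin chains that store iron were also among the 30 most abundant genes, with Ftl1 at 6566 ± 3456 TPM and Fth1 at 3282 ± 981 TPM. So were the calcium-binding protein S100a6 at 4315 ± 1916 TPM, the chaperone Hsp90ab1 at 4351 ± 939 TPM and the cytoskeletal actin Actb at 3059.5 ± 907 TPM. Hsp90ab1 differed least between libraries of these genes, with 4496, 5612, 3499 and 3797 TPM. Below the first 30, the most abundant genes that are neither ribosomal nor mitochondrial nor in a list were S100a11, Tpt1, Pkm, Ptma, Eef1g, Eif5a, Tmsb10, Rack1, Cfl1 and Npm1, at means between 1813 and 2702 TPM. Pkm encodes the pyruvate kinase of glycolysis and stood at 1681, 2081, 900.2 and 4629 TPM. Npm1, a nucleolar chaperone, stood at 2246, 2635, 2077 and 294 TPM, and its level in replicate 4 lay far below the range of the others.

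The label lung carcinoma was checked against markers of the cell types that such a culture could hold. Among 32 epithelial markers, 6 were expressed and 13 were at the floor. Among 31 mesenchymal markers, 21 were expressed and 2 were at the floor. These counts of expressed markers were the same without replicate 4, and can be read against the 50.5% of all protein-coding genes that were expressed. Among the epithelial markers, Cdh1 and Epcam were below the threshold of expression and the junction genes Ocln and Jup low but above it, while the simple-epithelium keratins Krt18 and Krt8 were abundant.

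The promoters of a marker from each side are shown because they sit at the ends of this range of levels. Vim and Krt18 were abundant, while Epcam and Nkx2-1 were at the floor or at 0 counts. Each line gives the 150 bases before the RefSeq start farthest upstream, 5′ to 3′ on the strand of the gene (GRCm38.p6), with CpG dinucleotides in capitals.
Vim, chr2:13574161-13574310, plus strand: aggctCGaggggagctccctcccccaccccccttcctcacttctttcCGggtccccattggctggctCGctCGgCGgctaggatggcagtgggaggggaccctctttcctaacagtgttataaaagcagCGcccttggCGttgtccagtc
Krt18, chr15:102028066-102028215, plus strand: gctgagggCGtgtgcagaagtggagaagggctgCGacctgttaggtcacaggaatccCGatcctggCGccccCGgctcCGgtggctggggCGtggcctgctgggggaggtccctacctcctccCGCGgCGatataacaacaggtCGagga
Epcam, chr17:87635829-87635978, plus strand: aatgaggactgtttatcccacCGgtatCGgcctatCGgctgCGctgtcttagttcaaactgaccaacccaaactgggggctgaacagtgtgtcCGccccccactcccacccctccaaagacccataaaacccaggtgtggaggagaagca
Nkx2-1, chr12:56536909-56537058, minus strand: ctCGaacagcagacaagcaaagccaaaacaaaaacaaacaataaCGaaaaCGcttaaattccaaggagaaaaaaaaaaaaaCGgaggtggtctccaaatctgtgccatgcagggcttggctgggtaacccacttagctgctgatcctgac

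In the 250 bases before the start, Vim held 8 CpG, Krt18 12, Epcam 8 and Nkx2-1 9, against a median of 6 (quartiles 2 and 16) over all 27025 genes with a window. The CpG count did not separate the abundant pair from the silent pair. The letters TATAAA, searched on the strand of the gene from 45 to 20 bases before the start, were found in the window of Vim and in none of the other 3, and 2.22% of all windows held them there. Windows were found for only 75.4% of the protein-coding genes, and no comparison of promoter composition between expressed and silent genes was made.

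Vim, which encodes the intermediate filament vimentin, was at 3049, 2896, 2217 and 2842 TPM and ranked 36 of all protein-coding genes. Replicate 4 lay within the range of the other libraries. Fn1, which encodes fibronectin, was at 959.6, 422, 679 and 427 TPM, and Sparc, a secreted protein that binds collagen, was at 491, 347, 704 and 608 TPM. None of these genes was under 347 TPM in any library. Other abundant mesenchymal genes were Col3a1 at 422 ± 223 TPM, the hyaluronan receptor Cd44 at 248 ± 99.02 TPM, Col5a1 at 184 ± 36.6 TPM and S100a4 at 176 ± 166 TPM. S100a4 was the least even of them, with 59.5, 232, 26.5 and 385 TPM and a mean of 106 ± 110.4 TPM without replicate 4 (n = 3).

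All transition factors of the list were expressed. Twist1 was at 191, 134, 208 and 125 TPM, Twist2 at 62.4, 82.9, 57.8 and 109 TPM, Snai1 at 38.7, 29.5, 43.4 and 91.8 TPM and Snai2 at 35.6, 86.3, 91.3 and 14.9 TPM. The Twist genes were the steadier pair, whereas Snai1 was highest and Snai2 lowest in replicate 4. Zeb1 was lower at 17.8, 18.6, 31.2 and 3.72 TPM and Zeb2 at 11.6, 8.54, 19.7 and 1.07 TPM. Acta2, the actin of smooth muscle and myofibroblasts, separated the libraries into a low pair and a high pair, at 1.80, 4.14, 137 and 75.2 TPM.

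Several genes that define fibroblasts were low or at the floor. Col1a1 and Col1a2, the chains of type I collagen, had means of 0.64 and 0.098 TPM, and Postn, which encodes the matrix protein periostin, had 0 counts in all libraries. Thy1, a surface glycoprotein of fibroblasts, was at the floor. Cdh2, the mesenchymal N-cadherin, was low at 6.74, 11.7, 6.87 and 2.21 TPM. The mesenchymal side of the profile thus held 9 markers at 100 TPM or more, among them Vim, Fn1, Sparc and the type III collagen gene, with almost no type I collagen transcript.

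On the epithelial side, Krt18 was at 416, 465, 179 and 928 TPM and its partner Krt8 at 117, 278, 66.8 and 741 TPM. Both were highest in replicate 4 and lowest in replicate 3, and without replicate 4 the mean of Krt8 was 154 ± 110.2 TPM (n = 3). The next epithelial markers were far lower, with the tight junction protein Ocln at 6.58 ± 4.199 TPM, the plakoglobin gene Jup at 4.31 ± 3.01 TPM (2.84 ± 0.81 without replicate 4, n = 3), the transcription factor Elf3 at 3.01 ± 1.898 TPM and Krt19 at 2.95 ± 1.86 TPM. Cdh1, which encodes E-cadherin, was at 0.12, 0.05, 0.09 and 0.05 TPM. Epcam, the claudins Cldn3 and Cldn4, the splicing regulator Esrp1 and the transcription factors Ehf, Ovol1 and Ovol2 were at the floor.

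The summed level of the mesenchymal list was 6012, 5560, 5015 and 5801 TPM, and that of the epithelial list was 553, 767, 256 and 1693 TPM. The mesenchymal sum was above the epithelial sum in each of the 4 libraries, and replicate 4 lay within the range of the others in the mesenchymal sum but had the highest epithelial sum. Few genes carried these sums, with Vim the largest part of the mesenchymal sum and Krt18 and Krt8 most of the epithelial sum. The sums therefore do not measure each list as a whole.

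Lineage genes of the lung were read list by list, and can be set against the 36.3% of all protein-coding genes at the floor. Of 12 alveolar type 2 markers, 7 were at the floor and 5 of these had 0 counts in all libraries. Nkx2-1, Slc34a2 and the surfactant protein genes Sftpa1, Sftpb and Sftpd had 0 counts, and Sftpc and Lamp3, a lysosomal membrane protein, were at the floor. Expressed members numbered 4 (33.3%). Those above 10 TPM were genes with a wider distribution, namely the transcription factor Etv5 at 62.6, 64.05, 66.6 and 71.1 TPM, the phospholipid acyltransferase Lpcat1 at 24.7 ± 6.92 TPM and the lipid transporter Abca3 at 20.4 ± 3.801 TPM. Etv5 was one of the steadiest genes among the markers. The last expressed member, Napsa, an aspartic protease of type 2 cells, was near 1 TPM at 0.99, 1.94, 1.11 and 0.8.

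Of 11 alveolar type 1 markers, 7 were expressed and none was at the floor. They were led by the caveolins, which are also abundant in fibroblasts and endothelium, with Cav1 at 505, 596, 511 and 141 TPM and Cav2 at 149, 153, 164 and 12.3 TPM. Both were lowest in replicate 4, where Cav2 lay far below the narrow range of the other libraries. Gprc5a, Emp2, Rtkn2 and Hopx had means between 13.6 and 65.7 TPM. Ager, the receptor for advanced glycation end products, was the lowest expressed member at 2.88 ± 1.198 TPM. The water channel Aqp5 at 0.19 ± 0.079 TPM and podoplanin, Pdpn, at 0.17 ± 0.14 TPM were below the threshold of expression.

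Of 13 club and ciliated cell markers, the widely used tubulin Tubb4b and the transcription factor Foxa2 were expressed, at 604 ± 283 and 40.96 ± 6.11 TPM. The secretoglobins Scgb1a1, Scgb3a1 and Scgb3a2 and the mucin Muc5b had 0 counts in all libraries, and Foxj1, the ciliary transcription factor, had a mean of 0.16 TPM. Foxa2 was even over the libraries at 41.1, 49.1, 34.4 and 39.3 TPM, while its relative Foxa1 was at 0.66, 0.32, 0.75 and 0.12 TPM. Of 12 basal and squamous markers, 3 were expressed and 5 were at the floor. Sprr1a, a protein of the cornified envelope, was the highest at 43.1, 4.47, 1.58 and 6.58 TPM and rested on replicate 1 (4.21 ± 2.51 TPM without it, n = 3), while Trp63 had a mean of 0.028 TPM, Krt5 and Krt14 were at the floor and Sox2 had 0 counts. Of 11 neuroendocrine markers, 3 were expressed, led by the ubiquitin hydrolase Uchl1 at 21.3 ± 9.36 TPM, whereas Neurod1 and Chga had 0 counts in all libraries.

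**Figure D2:**
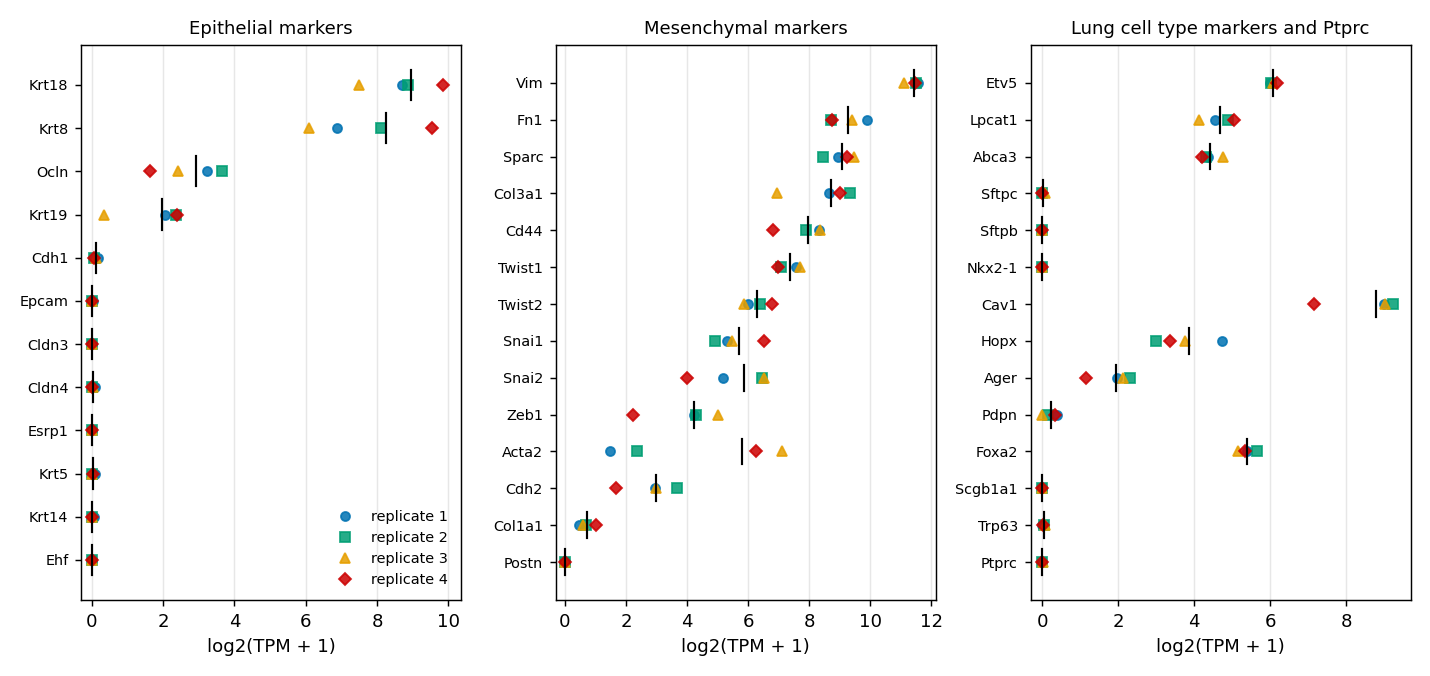
Levels of epithelial, mesenchymal and lung cell type markers, with Ptprc, in log2(TPM + 1) for each of the 4 wild-type libraries. Each symbol is a library and the black bar is the log2 of the mean TPM + 1. Krt18 and Krt8 are far above the other epithelial markers, Vim is high in every library, and Sftpc, Sftpb, Nkx2-1, Scgb1a1, Trp63 and Ptprc lie at or next to 0.

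Markers of other cells were looked at to see what else the culture held. Of all protein-coding genes, 50.5% were expressed and 36.3% were at the floor. Of 24 leukocyte markers, 4 were expressed and 13 were at the floor, among them Ptprc (CD45), the T cell genes Cd3e, Cd4 and Cd8a and the macrophage gene Adgre1. The expressed ones were the lysosomal protein Cd68 at 94.05, 16.5, 94.6 and 17.8 TPM, the lipopolysaccharide co-receptor Cd14 at 34.04, 31.4, 13.7 and 31.5 TPM, the integrin Itgax at 3.84 ± 2.35 TPM and the lysozyme Lyz2 at 1.19, 1.73, 6.30 and 1.94 TPM. Lyz2 rested on replicate 3, with a mean of 1.62 ± 0.39 TPM without it (n = 3). Cd68 formed a high pair, replicates 1 and 3, and a low pair, replicates 2 and 4. Of 12 endothelial markers, Egfl7 at 16.9 ± 11.1 TPM and the VEGF receptor Flt1 at 7.90 ± 2.85 TPM were expressed, while Pecam1 had a mean of 0.12 TPM and Erg, Cldn5 and Emcn had 0 counts.

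In the remaining lists, expressed markers numbered 2 of 12 for muscle, 4 of 12 for neural cells, 1 of 6 for melanocytes, 3 of 10 for liver and gut, 0 of 8 for erythroid cells and 1 of 12 for pluripotent and germ cells. Nes, the intermediate filament of neural progenitors, was the highest of them at 79.98, 127, 81.04 and 42.3 TPM. Mbp, a gene with non-myelin transcripts in other cells, was next at 25.6 ± 6.11 TPM, and Cdx2, a transcription factor of the intestine, was present at 10.9, 44.3, 5.44 and 14.5 TPM, or 10.3 ± 4.58 TPM without replicate 2 (n = 3). Nanog and Pou5f1 had 0 counts, and Lin28b was at 0.8, 1.40, 2.88 and 0.05 TPM.

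Genes of the sex chromosomes were read as counts. The 7 genes of the male-specific part of chromosome Y in the list, Ddx3y, Eif2s3y, Kdm5d, Usp9y, Uty, Zfy1 and Zfy2, had 0 counts in all libraries. Of 175 protein-coding genes annotated on chromosome Y, 174 had 0 counts, and the exception, Gm47283 at chrY:90784738-90816464 (picked out after its values were seen), had 944, 1332, 1581 and 805 counts. Whether the reads of Gm47283 came from chromosome Y or from similar sequence elsewhere was not tested. Xist, the non-coding RNA of the inactive X, was at 50.2, 115, 138 and 1.91 TPM, with 14344, 37287, 48716 and 498 counts. It was well above 0 in replicates 1 to 3 and low in replicate 4. The strand setting used for counting is not given in the sources used here, so reads of Xist and of its antisense partner cannot be told apart.

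The lists of lung carcinoma drivers were read next. Oncogenes and growth factor receptors were largely on, with 48 of 63 (76.2%) expressed, 16 of them at 100 TPM or more and 9 (14.3%) at the floor. Over all protein-coding genes, 50.5% were expressed, 7.37% were at 100 TPM or more and 36.3% were at the floor. Hmga1, a chromatin protein of dividing and transformed cells, was the highest at 2573, 1544, 1595 and 2833 TPM, rank 52, and its relative Hmga2 was at 532, 324, 151 and 97.3 TPM. The libraries agreed on Hmga1 within 1.84-fold, whereas Hmga2 differed by 5.47-fold. Myc was at 720.1, 402, 1427 and 276 TPM, rank 161, highest in replicate 3 and lowest in replicate 4. Its mean was 706 ± 516 TPM, and 466 ± 229 TPM without replicate 3 (n = 3).

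Cell cycle and signalling genes were the next group. Ccnd1, the cyclin that drives entry into S phase, was at 345, 441, 384 and 503 TPM and its kinase Cdk4 at 261, 468, 187 and 655 TPM. The receptor tyrosine kinase Axl was at 342, 412, 498 and 429 TPM, and Axl and Ccnd1 were the most even members at this level. Akt1 was at 379 ± 189 TPM, the oxidative stress factor Nfe2l2 at 261 ± 106 TPM, the ephrin receptor Epha2 at 228 ± 129 TPM, the survival gene Mcl1 at 153 ± 71.6 TPM and the receptor Fgfr1 at 151 ± 53.9 TPM. Mdm2, the ubiquitin ligase of p53, was at 227, 135, 248 and 11.1 TPM, with replicate 4 far below the others and a mean of 203 ± 60.02 TPM without it (n = 3).

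Nras and the receptors that are targets in lung cancer were chosen for mention after their values were seen. Nras, a small GTPase, was at 60.7, 92.7, 83.3 and 21.8 TPM and was lowest in replicate 4. The hepatocyte growth factor receptor Met was at 57.5, 72.04, 83.4 and 13.5 TPM and the epidermal growth factor receptor Egfr at 14.4, 20.2, 27.9 and 7.18 TPM. Other receptor kinases that carry fusions or mutations in lung tumours were off, since Alk, Ros1, Kit, Erbb4, Ntrk2 and Ntrk3 were at the floor, as were the transcription factors Mycn and Sox2.

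Tumour suppressor genes were also largely on, with 42 of 48 (87.5%) expressed and 5 (10.4%) at the floor. These shares were 50.5% and 36.3% over all protein-coding genes. Cdkn1a, the p21 inhibitor of cyclin-dependent kinases and a target of p53, was the highest at 484, 385, 693 and 474 TPM. Trp53 itself was at 126, 273, 81.9 and 393 TPM, highest in replicate 4. The chromatin remodeller Smarca4 was at 119 ± 32.5 TPM, Men1 at 103 ± 55.9 TPM, the TGF-beta mediator Smad4 at 88.8 ± 38.3 TPM, the kinase Stk11 at 85.9 ± 30.03 TPM and the Nfe2l2 inhibitor Keap1 at 53.5 ± 23.9 TPM. Cul3, the ligase partner of Keap1, was at 80.2, 133, 124 and 11.9 TPM and was lowest in replicate 4. Cdkn1b, Rbm10 and Nf2 had means between 52.4 and 69.8 TPM.

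Of the INK4 genes, only Cdkn2a and Cdkn2b were in the lists. Cdkn2a at chr4:89274471-89294653 and Cdkn2b at chr4:89306299-89311039, which encode inhibitors of Cdk4 and Cdk6, had 0 counts in all 4 libraries. Their neighbour Mtap at chr4:89137122-89181081, a gene of methionine salvage, was expressed at 161, 197, 170.4 and 102 TPM with 8255, 11456, 10806 and 4778 counts. Coordinates are those of GENCODE M21 on GRCm38. The levels therefore changed from over 100 TPM to 0 counts between adjacent protein-coding genes, and a missing locus and a silent one cannot be told apart from counts. The fragile site gene Fhit, the imprinted inhibitor Cdkn1c and Wt1 were at the floor as well.

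**Figure D3:**
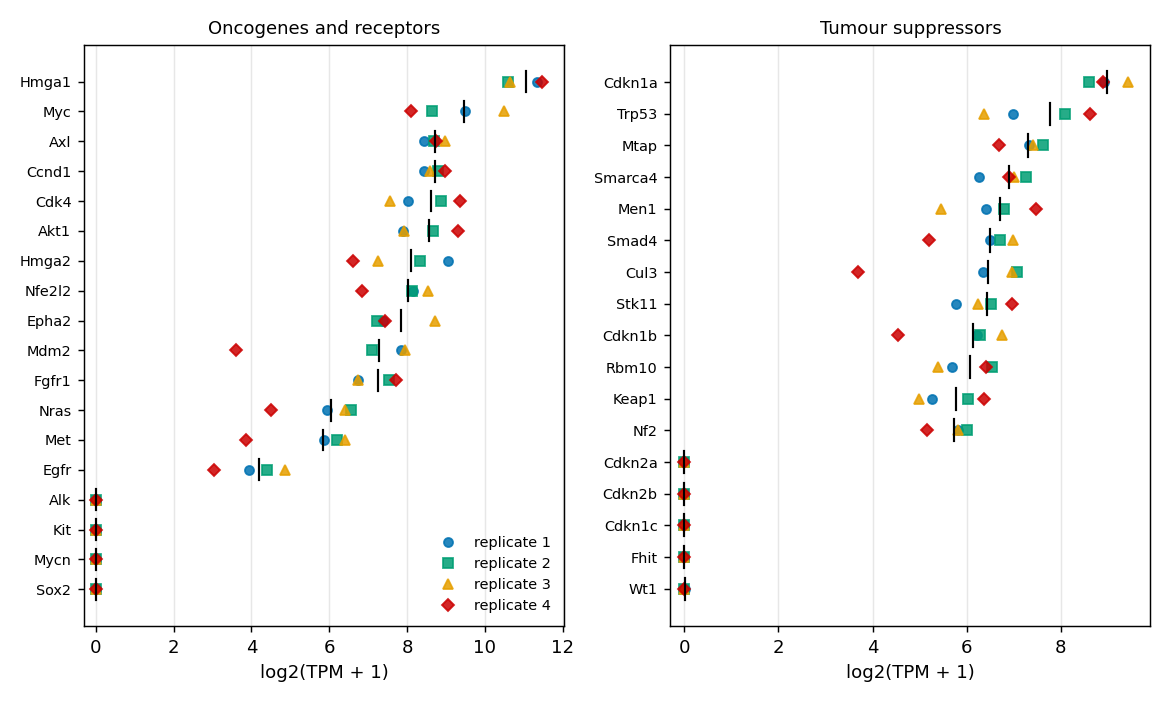
Levels of oncogenes and growth factor receptors (left) and of tumour suppressor genes (right) in log2(TPM + 1), with a symbol for each of the 4 wild-type libraries and a black bar at the log2 of the mean TPM + 1. Hmga1 leads the left panel and Cdkn1a the right panel, Mdm2 and Cul3 are lowest in replicate 4, and Alk, Kit, Mycn, Sox2, Cdkn2a, Cdkn2b, Cdkn1c, Fhit and Wt1 lie at or next to 0.

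Of 183 lineage transcription factors, 105 (57.4%) were expressed, 14 of them at 100 TPM or more, and 45 (24.6%) were at the floor. The expressed share was near the 50.5% of all protein-coding genes, of which 36.3% were at the floor. After Myc, the highest were Atf4, the factor of the integrated stress response, at 384, 852, 869 and 480.1 TPM, and the AP-1 subunits Jund at 456 ± 168 TPM, Fosl1 at 315 ± 101.2 TPM and Jun at 235 ± 92.4 TPM. Id3, an inhibitor of basic helix-loop-helix factors, came next at 55.1, 191, 191 and 451 TPM, with a mean of 146 ± 78.5 TPM without replicate 4 (n = 3). Below it, the ETS factors Etv4 and Elk3 were at 158 ± 33.4 and 143 ± 55.2 TPM and the AP-1 subunit Junb at 138 ± 28.2 TPM. Hif1a, the hypoxia factor, was at 233, 174, 214 and 22.8 TPM and Klf6, a zinc finger factor, at 139, 93.4, 267 and 11.2 TPM. In both, replicate 4 was far under the other libraries. The factors at the floor included Nkx2-1 and Ehf, named above, and factors of other lineages, among them Gata1 of erythroid cells, Sox10 of glia, Pax2 and Pax8 of kidney, Myod1 and Myog of muscle, Hnf4a of liver, Neurod1 of neurons and Hand1 and Hand2 of heart.

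Of 165 secreted growth factors and cytokines, 86 (52.1%) were expressed, 15 of them at 100 TPM or more, and 45 (27.3%) were at the floor, against 50.5% and 36.3% of all protein-coding genes. After Lgals1, the highest was Mif, the macrophage migration inhibitory factor, at 1269.9, 1108, 776 and 3367 TPM, followed by Igfbp4, a binding protein of insulin-like growth factors, at 538, 613, 349 and 1735 TPM. Both were highest in replicate 4, as was Igfbp6 at 225, 117, 155 and 517 TPM. Without replicate 4 the means were 1051 ± 252 TPM for Mif, 500.1 ± 136 TPM for Igfbp4 and 166 ± 54.8 TPM for Igfbp6 (n = 3). The matricellular protein Ccn1 was at 414, 263, 2017 and 216 TPM and rested on replicate 3, without which the mean was 298 ± 103 TPM (n = 3). Lgals3 (galectin-3) at 515, 378, 409 and 724 TPM and Grn (progranulin) at 273, 276, 583 and 456 TPM were more even.

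Factors that act on myeloid cells, vessels and epithelium were expressed with a wide spread. Csf1, the growth factor of macrophages, was at 129, 127, 491 and 129.6 TPM and was even apart from replicate 3, with a mean of 129 ± 1.17 TPM without it (n = 3). Ccl2, the monocyte chemokine and the highest of the Ccl genes, was at 424, 101.2, 25.4 and 35.2 TPM, and its mean of 147 ± 188 TPM was carried by replicate 1, since it was 53.95 ± 41.2 TPM without it (n = 3). Cxcl1, the highest of the Cxcl genes, was much lower at 23.1, 15.6, 15.3 and 6.36 TPM. Vegfb was at 181 ± 53.9 TPM, the EGF receptor ligand Areg at 358, 92.5, 229 and 39.8 TPM and the Kit ligand Kitl at 211, 179, 252 and 12.2 TPM. Kitl was far lower in replicate 4 than in the others. Dkk2, a secreted Wnt antagonist, differed by 42.2-fold between its lowest and highest library, at 513, 271, 12.2 and 75.7 TPM.

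Many inflammatory cytokines were silent. The floor held the interleukins Il1a, Il1b, Il4, Il6, Il10, Il13 and Il17a, the interferons Ifnb1 and Ifng, Tnf, Fasl, Tnfsf10, Csf2 and Osm, and the chemokines Cxcl2, Cxcl9, Cxcl12, Cxcl14, Ccl8, Ccl20 and Ccl22. It also held the morphogens Shh, Bmp7, Wnt4 and Wnt7a, the growth factors Igf2, Fgf5, Fgf9 and Pdgfd, and the binding proteins Igfbp2, Igfbp3 and Igfbp5. Within the Igfbp genes, silent members thus stood beside the abundant Igfbp4.

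Of 118 genes for matrix proteins, proteases and their inhibitors, 81 (68.6%) were expressed, 39 of them at 100 TPM or more, and 11 (9.32%) were at the floor. Over all protein-coding genes, 50.5% were expressed, 7.37% were at 100 TPM or more and 36.3% were at the floor. Spp1, which encodes osteopontin, had the highest mean, at 5749.6, 861, 327 and 339 TPM, with replicate 1 far above the rest. Without it the mean was 509 TPM over the other 3 libraries. The collagen-folding proteins followed, namely the prolyl hydroxylase subunit P4hb at 1110.5, 1556, 1371 and 2059 TPM and the chaperone Serpinh1 at 1227, 1012, 1656 and 1675 TPM. Both were within 1.85-fold over the libraries. Basement membrane collagens were abundant, with Col4a1 at 415, 518, 1341 and 456 TPM and Col18a1 at 778, 381, 786 and 329 TPM. Lysosomal and extracellular proteins made up much of the rest, with Psap at 998 ± 407 TPM, the anti-angiogenic serpin Serpinf1 at 736 ± 353 TPM, the protease inhibitor Cst3 at 735 ± 302.5 TPM, Timp2 at 518 ± 149.5 TPM and the cathepsin Ctsz at 493 ± 60.1 TPM. Ctsz was the most even, with 471, 425, 566 and 512 TPM. At the floor were the elastic fibre genes Eln, Fbn2, Mfap2 and Mfap5, the cartilage proteoglycan Acan, Fmod, Postn, Adam12, Cfb, Mmp7 and Mmp8.

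Of 176 surface protein genes, 122 (69.3%) were expressed, 37 of them at 100 TPM or more, and 23 (13.1%) were at the floor. These shares were 50.5%, 7.37% and 36.3% over all protein-coding genes. The light chain of MHC class I, B2m, was the highest at 2672, 1015, 2062 and 684 TPM, and the class I heavy chain H2-D1 was at 706, 391, 665 and 619 TPM. The MHC class II gene H2-Aa was at the floor. B2m differed by 3.91-fold between its highest and lowest library and H2-D1 by 1.81-fold. Bsg, a glycoprotein of the immunoglobulin family, was at 678, 768, 786 and 1545 TPM and Itgb1, the common beta chain of integrins, at 630.3, 518, 1149 and 106 TPM. Itgb1 was lowest in replicate 4, with a mean of 765 ± 337 TPM without it (n = 3). The amino acid transporter pair Slc7a5 and Slc3a2 was at 429.99 ± 191 and 373 ± 218 TPM, Ly6e at 575, 417, 188 and 919 TPM, the tetraspanin Cd63 at 428 ± 151 TPM, Itgb7 at 333 ± 169 TPM and the sialomucin Cd164 at 331 ± 188 TPM.

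The surface genes at the floor included Epcam of epithelium, Itgb6 and Itga4 of the integrins, the complement regulator Cd55, the stem cell marker Prom1, the peptidases Dpp4 and Mme, and the immune ligands Cd86, Cd48, Cd200, Pdcd1lg2 and Vtcn1. The checkpoint ligand Cd274 (PD-L1), chosen for mention after its value was seen, was low but above 1 TPM in the mean, at 3.52, 3.44, 7.61 and 0.74 TPM.

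**Figure D4:**
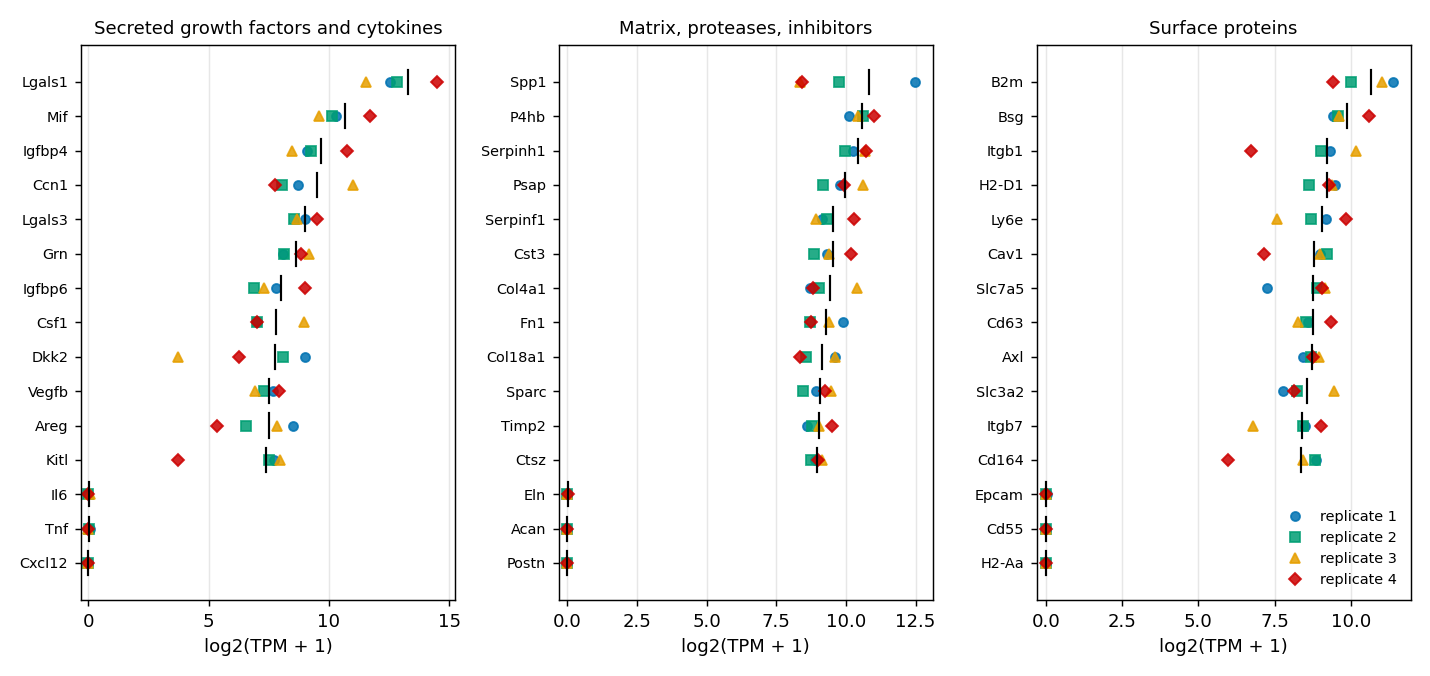
Levels of secreted growth factors and cytokines (left), of matrix proteins, proteases and inhibitors (middle) and of surface proteins (right) in log2(TPM + 1), with a symbol for each of the 4 wild-type libraries and a black bar at the log2 of the mean TPM + 1. Lgals1, Spp1 and B2m lead their panels, Spp1 is highest in replicate 1 and Lgals1 in replicate 4, and the last 3 genes of each panel are at the floor.

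Genes of common use as references were all expressed, 12 of 15 at 100 TPM or more, but few were even. Gapdh ranged over 1542, 2461, 924 and 4575 TPM and Tuba1b over 369, 906, 459 and 1974 TPM, both highest in replicate 4. The mean of Tuba1b was 927 ± 736 TPM, and 578 ± 288 TPM without replicate 4 (n = 3). Hprt was at 191, 230.1, 219 and 53.2 TPM and was lowest there. Pgk1, a glycolytic kinase, was the most even of the 12, at 657, 699.6, 396 and 645 TPM, with a highest library of 1.77 times the lowest.

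Silent genes were counted by families, taken as symbols that share a prefix. The counts can be read against all protein-coding genes, of which 36.3% were at the floor and 50.5% were expressed. Olfactory receptors (Olfr) were the largest group, with 1123 of 1135 at the floor, and their genes with 0 counts made up 18.5% of all protein-coding genes with 0 counts. A single olfactory receptor, Olfr920, reached the threshold of expression, at 1.32, 0.79, 1.90 and 0.02 TPM. The vomeronasal receptors were alike, with 206 of 209 Vmn1r genes and 117 of 120 Vmn2r genes at the floor, as were all 15 Taar genes. All 57 keratin-associated proteins (Krtap), 42 beta-defensins (Defb), 34 secretoglobins (Scgb) and 22 major urinary proteins (Mup) were at the floor. The Mup, Scgb and Taar genes had 0 counts throughout. Members of these families are similar in sequence, and how reads that match several copies were counted is not given in the sources used here.

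Families with tissue-restricted members lay in between. Of 53 keratin genes (Krt), 7 were expressed and 39 were at the floor. Of 39 Hox genes, 23 were expressed and 9 were at the floor, with Hoxd8 the highest at 66.5, 64.97, 95.4 and 23.4 TPM. Of 100 cytochrome P450 genes (Cyp) 14 were expressed, and of 94 potassium channel genes (Kcn) 9. Among 19 Wnt genes, 4 were expressed, led by Wnt7b at 41.1, 32.02, 2.25 and 67.8 TPM, and among 22 Fgf genes 4, led by Fgf7 at 45.5, 43.4, 41.2 and 6.13 TPM. Wnt7b was nearly off in replicate 3 and Fgf7 was lowest in replicate 4.

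At the other end, 45 of 46 genes with the complex I prefix Nduf and 48 of 50 with the proteasome prefix Psm were expressed. So were 43 of 45 Rps genes and 10 of 11 annexins (Anxa). The highest of the annexins, Anxa5, was even at 1463, 1382, 940.3 and 1321 TPM. Of 394 zinc finger genes (Zfp) 76.6% were expressed, and of 385 solute carriers (Slc) 182 were. By chromosome, the share of expressed protein-coding genes was lowest on Y (0.571%) and X (36.5%) and highest among the autosomes on chromosomes 12 and 8, with 58.7% each, while the lowest autosomes were chromosome 14 with 40.6% and chromosome 7 with 41.1%.

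The spread over the libraries was the last measurement. The median SD of log2(TPM + 1) over expressed genes was 0.67, and 0.38 without replicate 4. The highest library was within 2-fold of the lowest for 22.4% of expressed genes, and for 65.0% without replicate 4. More than a 10-fold range was found for 1504 genes with all libraries and for 198 among replicates 1 to 3. Spread declined with level, from a median SD of 0.69 at 1 to 10 TPM to 0.51 above 1000 TPM, and from 0.45 to 0.32 without replicate 4.

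The most variable gene above 10 TPM was Ptgs2, the inducible cyclooxygenase of prostaglandin synthesis, at 1114, 149, 1244 and 16.03 TPM with an SD of 2.92 on the log2 scale. Replicates 1 and 3 were high and replicates 2 and 4 low. The same pattern of a high pair 1 and 3 was seen for the stress genes Gadd45a at 523, 50.2, 756 and 16.8 TPM and Gdf15 at 28.6, 2.13, 60.8 and 1 TPM. In the EGF receptor ligand Ereg, at 55.9, 31.8, 114 and 2.14 TPM, replicates 1 and 3 were also the highest, but replicate 2 was not low. The SD of Ereg on the log2 scale went from 2.25 to 0.91 without replicate 4. In these 4 genes replicate 4 was the lowest library.

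In other variable genes replicate 1 was the highest library. The stromelysins Mmp3 and Mmp10 were at 409.9, 45.2, 2.06 and 52.9 and 63.8, 1.29, 1.18 and 1.48 TPM and the collagenase Mmp13 at 93.2, 5.35, 17.4 and 1.31 TPM. These 3 genes lie between positions 7272514 and 7510240 of chromosome 9. Il33, an alarmin cytokine, was at 42.5, 0.75, 0.44 and 0.67 TPM, its receptor Il1rl1 at 164, 44.8, 1.14 and 5.34 TPM and Il18rap, a receptor chain on the same part of chromosome 1 and the highest of the genes with the Il prefix, at 107, 100.4, 9.34 and 15.7 TPM. Il18rap was about level in replicates 1 and 2. For Mmp10 and Il33 the mean was carried by replicate 1 alone, and the other 3 libraries were at 1.48 TPM or less.

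Other variable genes followed replicate 4. The mitochondrial gene mt-Nd6 was at 787, 344, 1005 and 13.4 TPM, the zinc finger gene Zfp52 at 100.01, 31.3, 64.4 and 1.81 TPM and the histone demethylase Kdm7a at 34.4, 9.40, 49.8 and 0.49 TPM. Without replicate 4 the SD of mt-Nd6 on the log2 scale went from 2.83 to 0.81. Eid3 was at 2.45, 3.40, 49.04 and 0 TPM and rested on replicate 3.

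The most even genes above 10 TPM had an SD of 0.058 or less on the log2 scale. Sft2d1, a protein of vesicle transport, was at 22.1, 22.6, 21.7 and 21.9 TPM. Ehbp1l1 was at 77.8, 81.3, 79.6 and 82.3 TPM and Rhoa, the GTPase of the actin cytoskeleton, at 157, 155, 167 and 162 TPM. Arpc3, a subunit of the Arp2/3 complex, the mTORC1 subunit Rptor, the tRNA dihydrouridine synthase Dus2, and Gtf2ird1, Sgsm2 and Dcaf4 were also among the 10 most even genes. In each of these 10 genes the highest library was at most 1.10 times the lowest. That replicate 4 lay close to the other libraries follows from choosing genes by the smallest SD.

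**Figure D5:**
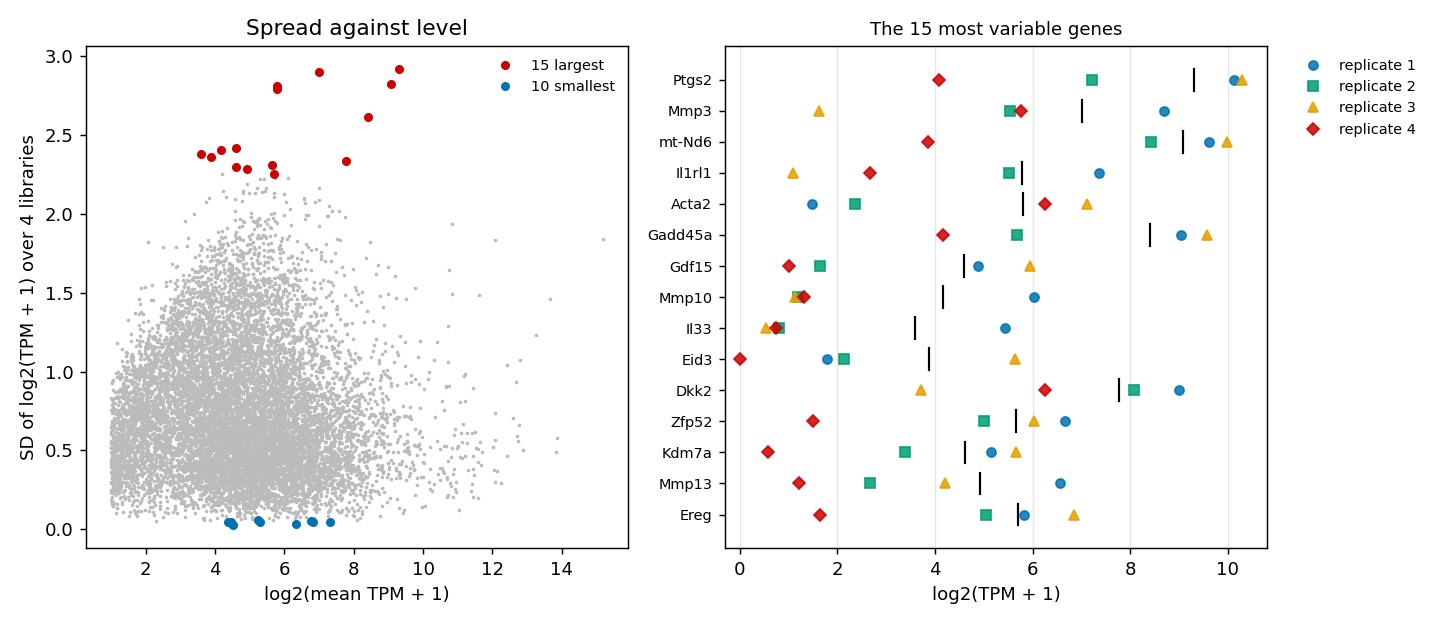
Left, the SD of log2(TPM + 1) over the 4 wild-type libraries against log2(mean TPM + 1) for the 11051 expressed protein-coding genes, with the 15 largest and 10 smallest SDs above 10 TPM in colour. Right, the level of the 15 most variable genes in each library, with a black bar at the log2 of the mean TPM + 1. Ptgs2, Gadd45a and Gdf15 are high in replicates 1 and 3, Mmp10 and Il33 in replicate 1 only, and mt-Nd6, Zfp52 and Kdm7a are lowest in replicate 4.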

How the data were processed

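Bulk RNA sequencing of 4 wild-type LLC libraries was described over 21903 protein-coding genes. RNA was purified with the NucleoSpin RNA kit, libraries were made with a stranded mRNA kit, which selects polyadenylated transcripts, and were sequenced in paired-end mode on an Illumina NovaSeq. Per the labels and the methods of the study, the authors mapped the reads against ribosomal RNA first and against the mm10 genome after that, with STAR named among the tools, and counted them per gene with featureCounts. The annotation release and the strand setting are not given in the sources used here.

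The deposited files hold 2 quantities for each library, raw read counts and the TPM values that the authors made from these counts, rounded to 2 decimals and scaled to the same total in every library. In 1907 genes with at least 200 counts and 50 TPM in every library, counts per TPM kept 1 ratio over the libraries within 1% in 100% of genes, and the implied length was within 5% of the exonic length of GENCODE M21 in 99.5%. Gene symbols, types and coordinates were taken from GENCODE M21 on GRCm38, which lacks 93 of the 55487 identifiers. Promoter windows were taken from RefSeq on GRCm38.p6, and 16515 protein-coding genes were matched by symbol.

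Means, SDs and ranks were computed over the 4 libraries in Python 3.11.15 with pandas 2.3.3, numpy 2.4.6 and matplotlib 3.10.9, and the spread as the SD of log2(TPM + 1). The computation was tested on simulated data. No contrast and no test between groups was made, and Dixon's limit was used to pick out single extreme libraries, and no column of per-sample values was left unmapped. The text names the 30 most abundant genes, in each list at most the 12 highest members, the members at the floor and the defining markers, the 15 largest and 10 smallest SDs at a mean of at least 10 TPM, the highest gene of each family, and the 10 highest genes outside these groups. Genes named outside this rule are marked as such, and some that it covers are not reported here. The wild-type libraries and the gene lists were chosen with earlier results of these data known. Alternatives were leaving out each library, other thresholds, other scalings (size factors from the median of ratios) and another pseudocount (0.1).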

Additional observations from a re-analysis of the deposited data

Results flagged for a closer look

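In each group of 4 libraries the gap between the most extreme library and its nearest neighbour was set against the range of all 4, with Dixon's 95% critical value as the limit. Of 201 genes, library measures and summed levels of marker lists examined, 21 were past this limit, or 10.4%, where chance gives about 1 in 20 in groups chosen without regard to their values. None of the summed levels was past it. The genes include some picked for the largest or the smallest SD over the same libraries, so the share cannot be read against that rate. None of the extreme libraries was replicate 2.

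Replicate 1 was the extreme library, with the highest level, for Spp1 at 5749.7 TPM, Mmp3 at 409.9 TPM, Jun at 373 TPM, Mmp10 at 63.8 TPM, Sprr1a at 43.1 TPM and Il33 at 42.5 TPM. Mmp3, Mmp10 and Spp1 encode secreted products, and Sprr1a a protein of the cornified envelope.

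Replicate 3 was the extreme library, with the highest level, for Ccn1 at 2017 TPM, Col4a1 at 1341 TPM, Slc3a2 at 695.5 TPM, Csf1 at 491 TPM, Epha2 at 420.4 TPM, Eid3 at 49.0 TPM and Lyz2 at 6.30 TPM. It was the lowest for Cd14 at 13.7 TPM.

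Replicate 4 was the extreme library, with the highest level, for Eef1g at 3400.2 TPM, Bsg at 1545 TPM and Egfl7 at 33.4 TPM, and the lowest for Cav2 at 12.3 TPM and Fgf7 at 6.13 TPM. It also had the lowest number of genes at 1 TPM or more, 10290, and the highest Spearman rho between its deviation from the other libraries and GC content, 0.75. The rho values of the libraries depend on each other, so Dixon's limit is only a rough guide for them. Whether these values share a source was not tested.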

How the results depend on the processing

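Counts of genes by level stayed within 1.5 times the reported value under all alternatives tried except 1. The number of protein-coding genes at 100 TPM or more was 1615 by the mean and 886 when every library had to reach it. Genes with 0 counts in all libraries numbered 6139 after thinning all libraries to the shallowest total. The share of protein-coding TPM in the 100 most abundant genes was 36.4%, and 32.0% with the mitochondrial genes left out. The median SD of log2(TPM + 1) was 0.67 with all libraries, lay between 0.38 and 0.74 when 1 was left out, and was lowest without replicate 4. It was 0.74 with a pseudocount of 0.1, 0.66 at a mean of 10 TPM or more and 0.27 with no filter on low values, the largest of these shifts. Scaling by size factors, which were between 0.742 for replicate 4 and 1.24 for replicate 2, was tried after the data were seen for the share of expressed genes in which a library was extreme. Replicate 2 was then the highest in 20.9% and the lowest in 18.7% (34.97% and 9.90% as deposited), and replicate 4 the highest in 40.2% (26.1% as deposited). Replicate 4 was the lowest in 53.4% as deposited and in 41.2% after scaling. Of 174 named genes with a mean of at least 1 TPM, the mean moved by over 1.5 times in 10 without replicate 1 (Ccl2, Dkk2, Il1rl1, Il33, Mmp3, Mmp10, Mmp13, Spp1, Sprr1a and Zfp52), in 1 without replicate 2 (Cdx2), in 12 without replicate 3 (Acta2, Ccn1, Csf1, Eid3, Ereg, Gadd45a, Gdf15, Kdm7a, Klf6, Lin28b, Lyz2 and Myc) and in 9 without replicate 4 (Id3, Igfbp4, Igfbp6, Jup, Krt8, Lgals1, Mif, S100a4 and Tuba1b), and in 0 under another scaling. Depth limits the genes at the floor, whose order cannot be read. The cause of these shifts was not tested.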

Other observations

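Gene classes outside the protein-coding set held little of the signal. Processed pseudogenes took 1.35%, 1.22%, 1.17% and 1.87% of all TPM and long intergenic RNAs 0.724%, 0.576%, 0.670% and 0.820%. Genes annotated as miRNAs took 0.798%, 0.605%, 0.686% and 0.809%, values that come from libraries of polyadenylated RNA and from very short genes, and the ribosomal RNAs of the mitochondrion took 0.211%, 0.204%, 0.242% and 0.0467%. Replicate 4 was the highest for processed pseudogenes and the lowest for mitochondrial ribosomal RNA, as it was for the mitochondrial protein-coding genes.

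Families not described above differed in how much of them was on. Of 61 Serpin genes, 10 were expressed and 42 were at the floor, although Serpinh1 was among the 100 most abundant genes. Of 82 genes with the Il prefix, 25 were expressed and 41 were at the floor. Of 22 Mmp genes, 8 were expressed, and the highest in the mean was the membrane-bound Mmp14 at 229, 126, 229 and 109.8 TPM, which did not share the high value of replicate 1 seen for Mmp3, Mmp10 and Mmp13. Of 28 genes with the Cdh prefix, 4 were expressed, and the highest was Cdh13, a cadherin without a transmembrane part, at 22.99, 7.89, 21.4 and 7.57 TPM.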
